A study of Mus musculus with 8 samples.

Results

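This account follows 10 genes of iron handling and ferroptosis through mouse kidney RNA sequencing libraries. They were chosen by name for their roles in iron uptake, storage and export and in the making or removal of lipid peroxides. Earlier results of these data were known when they were chosen. All 10 were found among the 15948 genes of the deposited table. The 8 libraries carried the labels Sglt2Cre DOCA (5 libraries, the control group here) and Arhgef11Sglt2 DOCA (3 libraries). Going by the study's title, the second group stands for a knockout of Arhgef11, a guanine nucleotide exchange factor, in the proximal tubule, where Sglt2 (Slc5a2) takes up glucose. Sglt2 stands in both group names and names the promoter that would restrict Cre to proximal tubule cells. DOCA, a common short name for the salt-retaining steroid deoxycorticosterone acetate, stands in both names too, so no untreated kidneys enter the comparison. The labels place the samples in the study's experiments 2 and 3 without saying which sample came from which, and give no genotype, age or strain beyond the group name. They do not say that each library was a separate animal, so p-values measure how these samples vary, and some of that may be technical. The RNA came from kidney tissue and not from sorted cells, so fewer cells of a type and less RNA per cell cannot be told apart.

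Iron reaches most cells bound to transferrin, which the transferrin receptor carries inside. Ferritin, a cage of heavy and light chains, stores it, and ferroportin, the product of Slc40a1, lets it out of the cell. The kidney filters and takes back iron, mostly along the proximal tubule. Ferroptosis is a form of cell death driven by iron and by the peroxidation of polyunsaturated membrane lipids. Acsl4 supplies those lipids, and Gpx4 reduces the peroxides. Much of this network is set after transcription. Iron regulatory proteins bind a short hairpin, the iron-responsive element. In the leader (5′ UTR) of ferritin and ferroportin messages the hairpin blocks translation when iron is low, and in the 3′ UTR of the transferrin receptor message it guards the message from decay.

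The hairpins are shown because hairpins in the leader and in the 3′ UTR act on a message in different ways. A search of GENCODE M21 transcripts (build GRCm38) for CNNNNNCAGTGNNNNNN, with all 5 pairs of the stem around the loop able to form, found 7 such sites in 4 of the 10 genes. The loop CAGTGN is in capitals, all sequences read 5′ to 3′ along the message with T for U, and each window of 29 bases comes from a UTR.
Fth1 leader: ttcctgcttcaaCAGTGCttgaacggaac
Ftl1 leader: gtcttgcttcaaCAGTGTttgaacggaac
Slc40a1 leader: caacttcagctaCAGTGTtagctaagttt
Tfrc 3′ UTR, site 1: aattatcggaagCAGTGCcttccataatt
Tfrc 3′ UTR, site 2: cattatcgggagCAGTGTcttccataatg
Tfrc 3′ UTR, site 3: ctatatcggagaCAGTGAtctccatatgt
Tfrc 3′ UTR, site 4: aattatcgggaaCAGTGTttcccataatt
The same search matched 0.937% of the 15056 measured genes with an annotated UTR. It found no match in Slc11a2, Ncoa4, Trf, Cp, Gpx4 or Acsl4, which says only that these letters with a full stem are not in their annotated UTRs. Elements with an incomplete stem are missed by this search, so a gene without a match may still carry the element, and a matched gene may carry more. Between the groups of libraries Tfrc, with the hairpins in the 3′ UTR, had a negative difference. The 3 genes with the hairpin in the leader had positive ones, and so did the 6 genes without a match. Among these positive log2 differences, Fth1 had 0.22 (limma adjusted p = 0.487), Ncoa4 0.19 (0.558), Gpx4 0.09 (0.641) and Slc11a2 0.04 (0.888). The signs of Ncoa4, Gpx4 and Slc11a2 turned when certain single libraries were left out. The part of the hairpins in these differences was not tested. Of the 4 genes with a match Slc40a1 alone passed the test in limma.

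Kidneys labelled Arhgef11Sglt2 had more ferroportin message than the controls, by 1.51-fold, and this was the 1 gene of the 10 that passed the test. The messages of ceruloplasmin (Cp, 1.59-fold), the lipid enzyme Acsl4 (1.68-fold) and ferritin light chain (Ftl1, 1.36-fold) were also above every control library in all 3 Arhgef11Sglt2 libraries, and that of the transferrin receptor (Tfrc) was below every control library. These 4 genes did not pass the test over all genes. In limma, a linear model fitted to the whole table with Benjamini-Hochberg adjustment at 0.05, 1 of the 10 genes passed, beside 2.22% of all genes (354 of 15948). That total moved with single libraries: it was 187, 135, 24 or 76 without control replicate 1, 3, 4 or 5, and 1334 or 45 without replicate 1 or 3 of the Arhgef11Sglt2 group. At an unadjusted p under 0.05 stood 6 of the 10 genes, beside 21.1% of all genes. The 2 groups of libraries did not overlap for 5 of the 10 genes, beside 14.3% of all genes. They comprised 4 with higher values, beside 6.2% of all genes, and 1 with lower values, beside 8.14%. Of the 10 genes, 9 had a positive log2 difference, with a median of 0.33 where the median of all genes was -0.01. The median size of the difference, whatever its sign, was 0.49 for the 10 genes and 0.10 for all genes. That comparison favours these abundant genes, since the deposited scale compresses differences of genes with few reads. Levels are given as normalized counts, which are counts corrected for library size, recovered from the deposited log2 values. Fold changes are ratios of group means of normalized counts. Log2 differences and their standard errors are on the deposited scale, Arhgef11Sglt2 minus control.

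**Figure D1:**
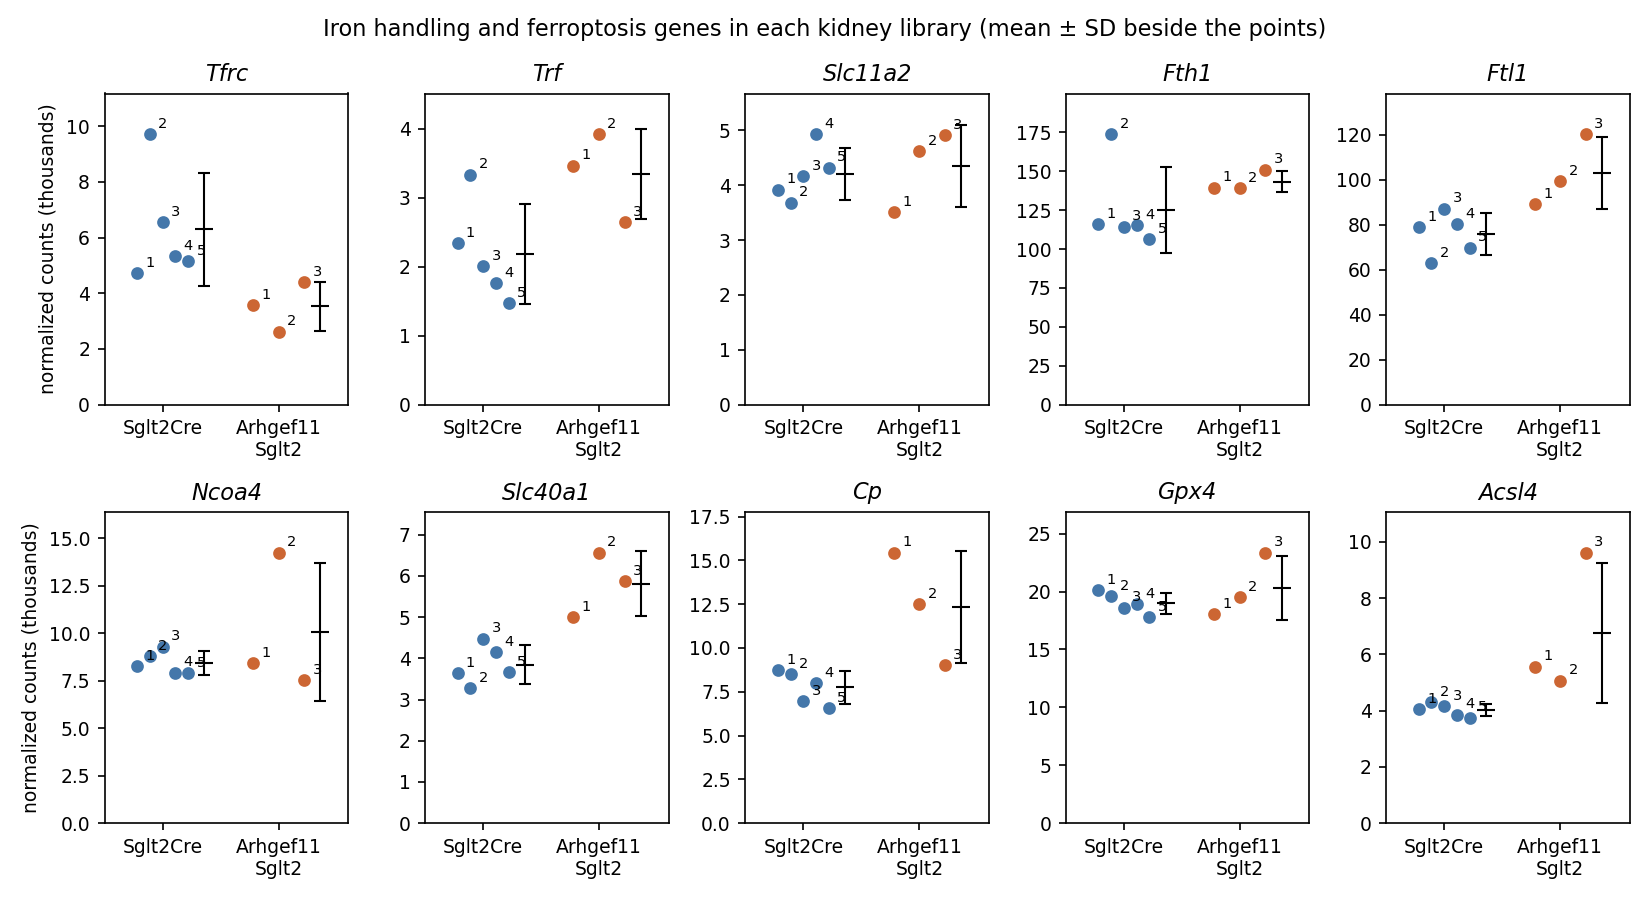
Normalized counts (each axis from 0) of the 10 genes in each library, with the replicate number beside each point and the group mean with its SD as a black bar. Slc40a1, Cp, Ftl1 and Acsl4 lay above every control library in the 3 Arhgef11Sglt2 libraries, and Tfrc lay below every control library.

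Facts of the whole table bear on what follows. The steps between low values put the counts assigned to the listed genes, before correction for library size, at 33.1 to 59.5 M in the control libraries. In the Arhgef11Sglt2 libraries the estimate was 51.4 to 57.8 M. It is rough, since only 30.1% to 54.1% of low values fell on the steps. The targeted gene, Arhgef11, had 3679.5 ± 161.6 normalized counts in the controls (SD, n = 5) and 3587 ± 564 in the other group (SD, n = 3; limma adjusted p = 0.834). Its whole-gene level therefore did not check the labels, and every direction refers to libraries as labelled. Markers of all the kidney segments listed were present in every library. On the first principal component of the log2 values (44.4% of the variance), Arhgef11Sglt2 replicate 3 lay at 31.3, apart from replicates 1 and 2 of its group at 4.69 and 14.0, and the controls lay between -13.1 and -5.70. When limma weighted libraries by their variability, replicates 1 and 3 of that group had the lowest weights, 0.404 and 0.419. The summed proximal tubule markers (12 of 12 measured, 3 lower in limma) ran from 558694 to 623337 normalized counts in the controls and were 331802, 517816 and 346747 in Arhgef11Sglt2 replicates 1, 2 and 3. Markers of other tubule segments had negative medians too. Those of the thick ascending limb (6 of 6 measured, 1 lower in limma) had a median log2 difference of -0.43, with sums of 277338 to 326589 in the controls and 233647 to 282266 in the other group. Those of the distal tubule and collecting duct (8 of 8 measured, in limma 0 passed and 2 had an unadjusted p under 0.05) had a median of -0.21. The library names carry numbers that fall into 2 separate ranges, and differences within each range are given beside the results. The first range holds control replicates 1 to 3 and Arhgef11Sglt2 replicates 1 and 2. The second holds control replicates 4 and 5 and Arhgef11Sglt2 replicate 3, so its values have no test. What the ranges stand for is not stated in the labels.

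Among the genes of iron uptake, Tfrc (ENSMUSG00000022797), the receptor that brings transferrin-bound iron into cells, had the largest difference. The control libraries, replicates 1 to 5, had 4717, 9720, 6568, 5346 and 5154 normalized counts. The Arhgef11Sglt2 libraries, replicates 1 to 3, had 3568, 2626 and 4398. No Arhgef11Sglt2 library reached the lowest control; replicate 3 of that group came nearest. Control replicate 2 stood well above the rest. The group means were 6301 ± 2031 (SD, n = 5) and 3531 ± 887 (SD, n = 3), a ratio of 0.560. The log2 difference was -0.73 (SE 0.22, 95% interval -1.21 to -0.25). Its limma adjusted p was 0.102, and an exact permutation test of the group labels (two-sided, 56 arrangements, unadjusted) gave p = 0.0357, where 0.0179 is the smallest it can give. In the first range of library numbers the difference was -1.01, and in the second -0.23. Immature red cells also carry this receptor. The summed erythroid markers (7 of 10 measured; in limma 0 passed and 1 had an unadjusted p under 0.05) ran from 6958 to 24708 normalized counts in the controls and from 5847 to 15269 in the other group. In control replicates 1 to 5 the erythroid sums were 15483, 6958, 24708, 10003 and 8818. In Arhgef11Sglt2 replicates 1 to 3 they were 5847, 15269 and 11077. The part of red cells in the Tfrc difference was not tested.

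Trf (ENSMUSG00000032554) encodes transferrin itself, the carrier of iron in plasma, which the liver makes in bulk. Its control libraries, replicates 1 to 5, had 2341, 3334, 2005, 1765 and 1473 normalized counts, and the Arhgef11Sglt2 libraries had 3464, 3922 and 2641. The groups overlapped because control replicate 2 exceeded replicate 3 of the Arhgef11Sglt2 group. The means were 2184 ± 718 (SD, n = 5) and 3342 ± 649 (SD, n = 3), a ratio of 1.53. The log2 difference of 0.54 (SE 0.20) had a limma adjusted p of 0.16, and the exact permutation p was 0.0714. It was 0.47 in the first range and 0.57 in the second. Hepatocyte markers (6 of 8 measured; in limma 0 passed and 1 had an unadjusted p under 0.05) summed to 16941 to 18834 normalized counts in the controls. In the Arhgef11Sglt2 libraries they summed to 23408, 16814 and 16459 in replicates 1, 2 and 3, where Trf was 3464, 3922 and 2641. The part of hepatocyte RNA in the Trf difference was not tested.

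Slc11a2 (ENSMUSG00000023030), the divalent metal transporter DMT1 that moves iron across endosomal and apical membranes, showed no difference larger than the spread. Control libraries ran from 3686 to 4935 normalized counts with a median of 4172, and the Arhgef11Sglt2 libraries had 3506, 4625 and 4921. These cover most of the control range and extend below it. Its log2 difference was 0.04 (SE 0.11, limma adjusted p = 0.888), with a 95% interval from -0.22 to 0.29, and 0.04 and 0.08 in the first and second range.

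**Figure D2:**
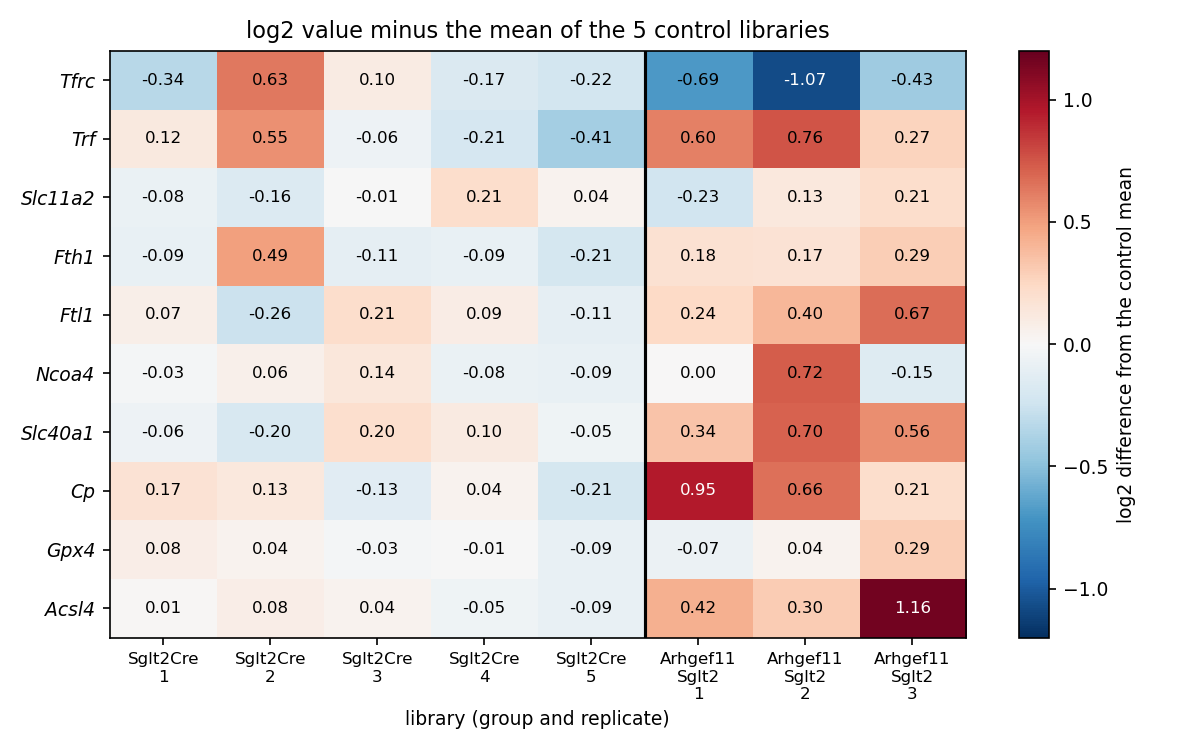
Log2 value of each gene (rows) in each library (columns) minus the mean of the 5 control libraries, on the deposited scale, with the value printed in each cell. Replicate 3 of the Arhgef11Sglt2 group had the largest value for Acsl4 (1.16), replicate 1 for Cp (0.95) and replicate 2 the lowest for Tfrc (-1.07).

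Iron storage was represented by the ferritin chains and by the receptor that delivers ferritin for breakdown. Fth1 (ENSMUSG00000024661) encodes the heavy chain, which oxidizes iron for storage. Its control libraries, replicates 1 to 5, had 115892, 173905, 114414, 115586 and 106425 normalized counts, and the Arhgef11Sglt2 libraries 139565, 139083 and 151034. Every Arhgef11Sglt2 library exceeded 4 of the 5 controls, and control replicate 2 exceeded all libraries. The means were 125240 ± 27480 (SD, n = 5) and 143230 ± 6765 (SD, n = 3). On the log2 scale the difference was 0.22 (SE 0.17, limma adjusted p = 0.487; exact permutation p = 0.196). It was 0.08 in the first range, which holds control replicate 2, and 0.44 in the second. Without control replicate 2 it was 0.34.

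Ftl1 (ENSMUSG00000050708) encodes the light chain, which helps the iron core form. The controls had 78889, 63040, 87135, 80246 and 69771 normalized counts in replicates 1 to 5, and the Arhgef11Sglt2 libraries 89092, 99258 and 120281. All 3 lay above the highest control, replicate 1 by a narrow margin. The means were 75816 ± 9446 (SD, n = 5) and 102880 ± 15910 (SD, n = 3). This gave a log2 difference of 0.44 (SE 0.14, 95% interval 0.12 to 0.75). It did not pass in limma (adjusted p = 0.128), while the exact permutation p was 0.0179, the smallest possible. In the first and second range it was 0.31 and 0.68. Control replicate 2, which had the most Fth1 of the 8 libraries, had the least Ftl1. A measured pseudogene of it, Ftl1-ps1, had 146.7 ± 46.8 normalized counts in the controls (SD, n = 5) and 169.5 ± 59.9 in the other group (SD, n = 3), and how reads common to both were divided leaves some uncertainty in either value.

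Ncoa4 (ENSMUSG00000056234) is the receptor that carries ferritin to the lysosome. Controls ran from 7885 to 9306 normalized counts with a median of 8264. The Arhgef11Sglt2 libraries had 8440, 14254 and 7518, so replicate 2 alone stood above the controls and replicate 3 lay below them. The log2 difference of 0.19 (SE 0.17, limma adjusted p = 0.558) became -0.08 without replicate 2 of that group. It was 0.31 in the first range and -0.07 in the second.

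Iron export held the gene that passed the test. Slc40a1 (ENSMUSG00000025993), ferroportin, is the exporter through which iron leaves cells. The controls had 3648, 3273, 4479, 4149 and 3671 normalized counts in replicates 1 to 5, and the Arhgef11Sglt2 libraries 4993, 6564 and 5875. The lowest Arhgef11Sglt2 library exceeded the highest control. The means were 3844 ± 472 (SD, n = 5) and 5811 ± 787 (SD, n = 3). They differed by 0.54 on the log2 scale (SE 0.11, 95% interval 0.29 to 0.78), with a limma adjusted p of 0.0424 and an exact permutation p of 0.0179, the smallest possible. In the first and second range it was 0.54 and 0.53. The first range alone, with 5 libraries, gave a limma adjusted p of 0.4.

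Most single libraries decided whether Slc40a1 passed, while the size of the difference moved little. The log2 difference ran from 0.45 to 0.63 with each library left out in turn. The limma adjusted p was above the threshold without control replicate 1 (0.0825), 2 (0.0588), 4 (0.0917) or 5 (0.0933), and without replicate 2 (0.0815) or 3 (0.153) of the Arhgef11Sglt2 group. Macrophages that recycle iron also make ferroportin. Their markers (12 of 12 measured; in limma 0 passed and 1 had an unadjusted p under 0.05) summed to 14972 to 19239 normalized counts in the controls, and to 26371, 17015 and 10791 in Arhgef11Sglt2 replicates 1, 2 and 3. In the same libraries Slc40a1 had 4993, 6564 and 5875. The part of macrophages in the Slc40a1 difference was not tested.

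Cp (ENSMUSG00000003617) encodes ceruloplasmin, a copper ferroxidase that oxidizes exported iron so that transferrin can bind it, and is also an acute-phase protein. The controls had 8741, 8488, 6974, 7972 and 6584 normalized counts in replicates 1 to 5, and the Arhgef11Sglt2 libraries 15443, 12501 and 9031. The groups did not overlap, but Arhgef11Sglt2 replicate 3 came near control replicate 1. The means were 7752 ± 940 (SD, n = 5) and 12325 ± 3209 (SD, n = 3). Its log2 difference was 0.61 (SE 0.16, 95% interval 0.26 to 0.96), with a limma adjusted p of 0.0748 and an exact permutation p of 0.0179. It was 0.75 in the first range and 0.30 in the second. Replicate 1, highest for Cp, also had the highest sums of hepatocyte, macrophage and fibroblast markers and the lowest sum of proximal tubule markers. It had the highest sum of neutrophil markers too, 633 normalized counts where the controls had 180 to 402. Of the neutrophil markers 5 of 7 were measured, with a median log2 difference of 0.295. In limma 1 of them passed as higher and 4 had an unadjusted p under 0.05. In Arhgef11Sglt2 replicates 2 and 3 the neutrophil sums were 392 and 394. Hepatocyte sums there were 16814 and 16459 (controls 16941 to 18834), and macrophage sums 17015 and 10791 (controls 14972 to 19239). The part of these cell types in the Cp difference was not tested.

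Of the pair that makes and removes lipid peroxides, the defence gene did not differ beyond the spread. Gpx4 (ENSMUSG00000075706) encodes the selenoenzyme that reduces peroxides within membranes and whose loss sets off ferroptosis. Controls ran from 17779 to 20155 normalized counts with a median of 18925, and the Arhgef11Sglt2 libraries had 18067, 19510 and 23367. Replicates 1 and 2 lay inside the control range and replicate 3 above it. On the log2 scale the difference was 0.09 (SE 0.10, limma adjusted p = 0.641), with a 95% interval from -0.13 to 0.30, which as a ratio is 0.917 to 1.23. It was -0.05 in the first range and 0.34 in the second. A measured pseudogene, Gpx4-ps2, had at most 22.8 normalized counts in any library.

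Acsl4 (ENSMUSG00000031278) activates arachidonic and other polyunsaturated fatty acids for membrane lipids, and cells without it resist ferroptosis. The controls were tight, at 4060, 4293, 4155, 3862 and 3748 normalized counts in replicates 1 to 5. The Arhgef11Sglt2 libraries had 5567, 5069 and 9618. All lay above the controls, and replicate 3 stood far above the other two. Group means were 4024 ± 220 (SD, n = 5) and 6752 ± 2495 (SD, n = 3), a ratio of 1.68 that was 1.32 without replicate 3. This gave a log2 difference of 0.63 (SE 0.17, 95% interval 0.26 to 0.995), with a limma adjusted p of 0.079 and an exact permutation p of 0.0179. It passed in limma without replicate 1 (adjusted p = 0.0467) or replicate 2 (adjusted p = 0.0449) of the Arhgef11Sglt2 group. In the first and second range it was 0.31 and 1.23, and the second value rests on replicate 3.

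**Figure D3:**
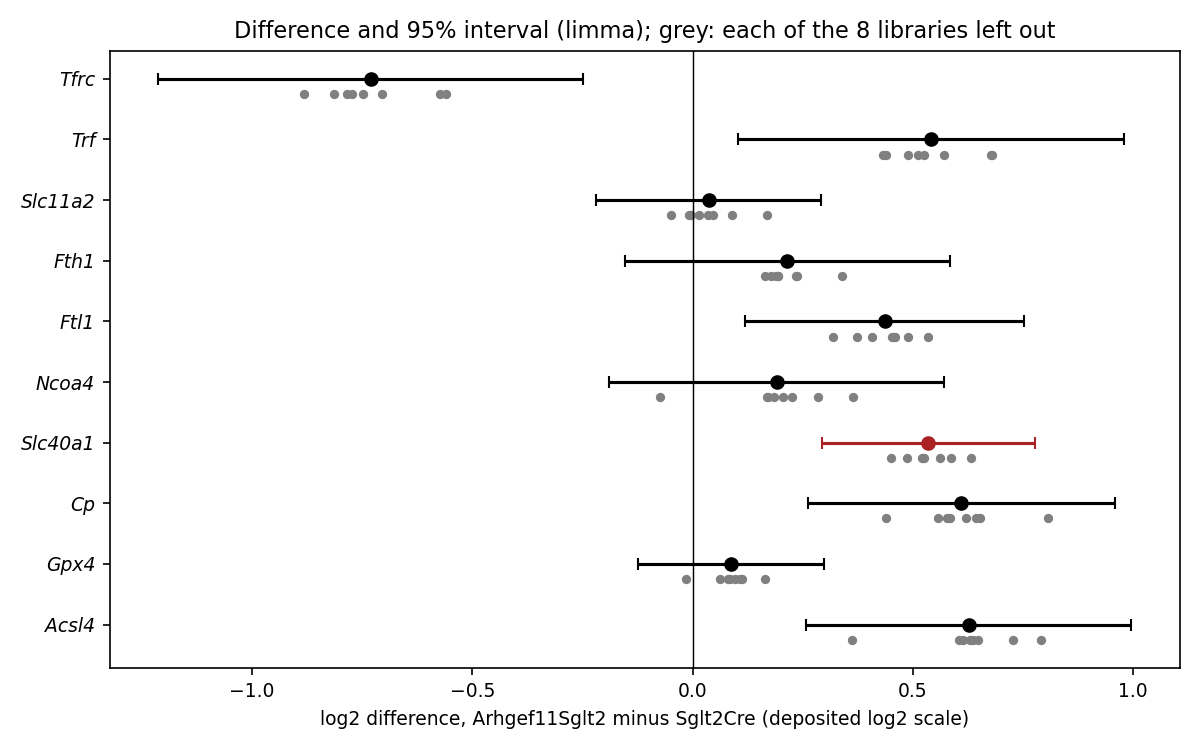
Log2 difference between the groups (Arhgef11Sglt2 minus Sglt2Cre, deposited scale) with its 95% interval from limma for each gene; grey points give the difference with each of the 8 libraries left out. Slc40a1, in red, passed the threshold, and the intervals of Slc11a2, Fth1, Ncoa4 and Gpx4 include 0.

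Across libraries the 10 genes did not share 1 order. Replicate 3 of the Arhgef11Sglt2 group was the highest of the 8 libraries for Acsl4, Gpx4 and Ftl1, replicate 2 for Slc40a1, Trf and Ncoa4, and replicate 1 for Cp. Among the controls, replicate 2 was the highest for Tfrc, Trf, Fth1 and Acsl4 and the lowest for Slc40a1, Slc11a2 and Ftl1. The spread between control libraries, as SD over mean, ran from 4.8% for Gpx4 and 5.5% for Acsl4 to 32.2% for Tfrc and 32.9% for Trf.

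The wider iron and ferroptosis network was followed in 8 lists, also chosen with earlier results of these data known. They had 119 entries, of which 112 were measured. In limma 0 were higher and 2 lower, and 110 did not pass, beside 0.627% higher and 1.59% lower among all genes. With libraries scaled to equal totals there were 2 higher and 1 lower: Gclc (limma adjusted p = 0.0492) and Sat1 (0.0368) passed as higher and Scd2 did not pass (0.0636). At an unadjusted p under 0.05 there were 40 of the 112, beside 21.1% of all genes. The 2 calls became 0 without control replicate 4 or Arhgef11Sglt2 replicate 3, 1 without any other control library, and 15 without Arhgef11Sglt2 replicate 1. Both were fatty acid desaturases. Fads2, which makes polyunsaturated fatty acids, fell from 6438 ± 447 normalized counts (SD, n = 5, controls) to 4292 ± 451 (SD, n = 3). The ratio was 0.667, with a log2 difference of -0.53 (SE 0.08, limma adjusted p = 0.0189), and no library of one group reached the other. Scd2, which makes the monounsaturated fatty acids that resist peroxidation, fell from 13880 ± 1281 (SD, n = 5) to 9810 ± 1161 (SD, n = 3), 1.42-fold lower (limma adjusted p = 0.0454). Fads2 lost its call without control replicate 4 (limma adjusted p = 0.0573) or Arhgef11Sglt2 replicate 3 (0.0694). Scd2 lost it without any 1 of the control libraries (limma adjusted p from 0.0603 to 0.0928), and without Arhgef11Sglt2 replicate 2 (0.0798) or 3 (0.169).

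The rest of the lists follow, with group means ± SD given as control (n = 5) against Arhgef11Sglt2 (n = 3), and with the number of genes at an unadjusted limma p under 0.05, to be read against the 21.1% of all genes. Of the 12 iron uptake and reduction genes 0 passed in limma, 6 had such a p, and the median log2 difference was 0.08. Steap1, a metalloreductase, had 237.8 ± 33.9 against 384.1 ± 80.0 normalized counts (limma adjusted p = 0.0768). Slc39a8, a zinc, manganese and iron importer, had 2250 ± 140 against 1723 ± 249 (limma adjusted p = 0.0816). Among 9 iron sensors and chaperones 0 passed in limma and 1 had an unadjusted p under 0.05 (median -0.05). They include Aco1, iron regulatory protein 1, which binds the hairpins shown above. It had 14136 ± 354 against 12045 ± 1289 normalized counts (limma adjusted p = 0.156), with every Arhgef11Sglt2 library below the controls. Pcbp2, an iron chaperone, had 12818 ± 339 against 14231 ± 1481 (limma adjusted p = 0.346). Without Arhgef11Sglt2 replicate 3 the log2 difference of Aco1 went from -0.23 to -0.14 and that of Pcbp2 from 0.14 to 0.08, and without replicate 1 that of Pcbp2 was 0.22.

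Of 8 measured genes of iron export and the hepcidin axis, 0 passed in limma and 2 had an unadjusted p under 0.05 (median 0.06). Bmp6, the ligand that induces hepcidin in liver, had 3042 ± 374 against 4681 ± 1276 normalized counts (limma adjusted p = 0.0834). Its log2 difference of 0.53 was 0.33 without Arhgef11Sglt2 replicate 3. Heph, hephaestin, a ferroxidase related to ceruloplasmin, had 948.8 ± 109.0 against 774.8 ± 71.2 (limma adjusted p = 0.206). Its difference thus had the opposite sign to that of Cp. Hamp, the gene of hepcidin, was listed but was not among the measured genes.

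Of 16 haem genes 0 passed in limma and 4 had an unadjusted p under 0.05 (median 0.06). They include the haem exporter Flvcr1, with 1043 ± 142 against 1591 ± 342 normalized counts (limma adjusted p = 0.0745). Uros, an enzyme of haem synthesis, had 813.3 ± 37.5 against 522.8 ± 162.9 (limma adjusted p = 0.0751). Its log2 difference was -0.26 in place of -0.41 without Arhgef11Sglt2 replicate 3. Hmox1, haem oxygenase 1, which frees iron from haem, is named after its values were seen. It had 1560, 1027, 1867, 2261 and 1536 normalized counts in the controls and 3067, 2725 and 24145 in Arhgef11Sglt2 replicates 1, 2 and 3. Its log2 difference of 1.64 (SE 0.56) did not pass in limma (adjusted p = 0.144). Replicate 3, the outlying library here, is the one with the most Acsl4, Gpx4 and Ftl1.

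The 18 genes of mitochondrial iron and iron-sulphur clusters had a median of -0.10, and 12 of them had a negative difference, with 0 past the threshold in limma and 7 at an unadjusted p under 0.05. Cisd3, an iron-sulphur protein of mitochondria, had 1656 ± 227 against 1078 ± 279 normalized counts (limma adjusted p = 0.0769). Tubule cells are rich in mitochondria, and the proximal tubule and thick ascending limb markers, with median log2 differences of -0.48 and -0.43, stand beside this list. Their part in the result was not tested.

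Of 25 genes of glutathione and lipid peroxide defence, Scd2 alone passed in limma and 9 had an unadjusted p under 0.05 (median 0.09). Gclc, the rate-limiting enzyme of glutathione synthesis, had 8410 ± 442 against 13120 ± 3885 normalized counts (limma adjusted p = 0.0748), with all 3 Arhgef11Sglt2 libraries above the controls. Its log2 difference of 0.57 was 0.36 without replicate 3 of that group. Of 14 genes of peroxidisable lipid synthesis and peroxidation, Fads2 alone passed in limma and 6 had an unadjusted p under 0.05 (median -0.02). Sat1, which breaks down polyamines, had 9455 ± 827 against 14775 ± 3451 (limma adjusted p = 0.0559). Of 10 transcripts known to be induced in ferroptosis 0 passed in limma and 5 had an unadjusted p under 0.05 (median 0.19), and 8 had a positive difference. Rgs4, a regulator of G protein signalling, had 87.6 ± 27.4 against 247.7 ± 161.8, and the stress factor Atf3 had 252.3 ± 78.0 against 437.2 ± 85.6 normalized counts. Their limma adjusted p was 0.109 and 0.11. In Arhgef11Sglt2 replicates 1, 2 and 3 Rgs4 had 162.3, 146.5 and 434.4 normalized counts, and without replicate 3 its log2 difference went from 0.48 to 0.26.

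**Figure D4:**
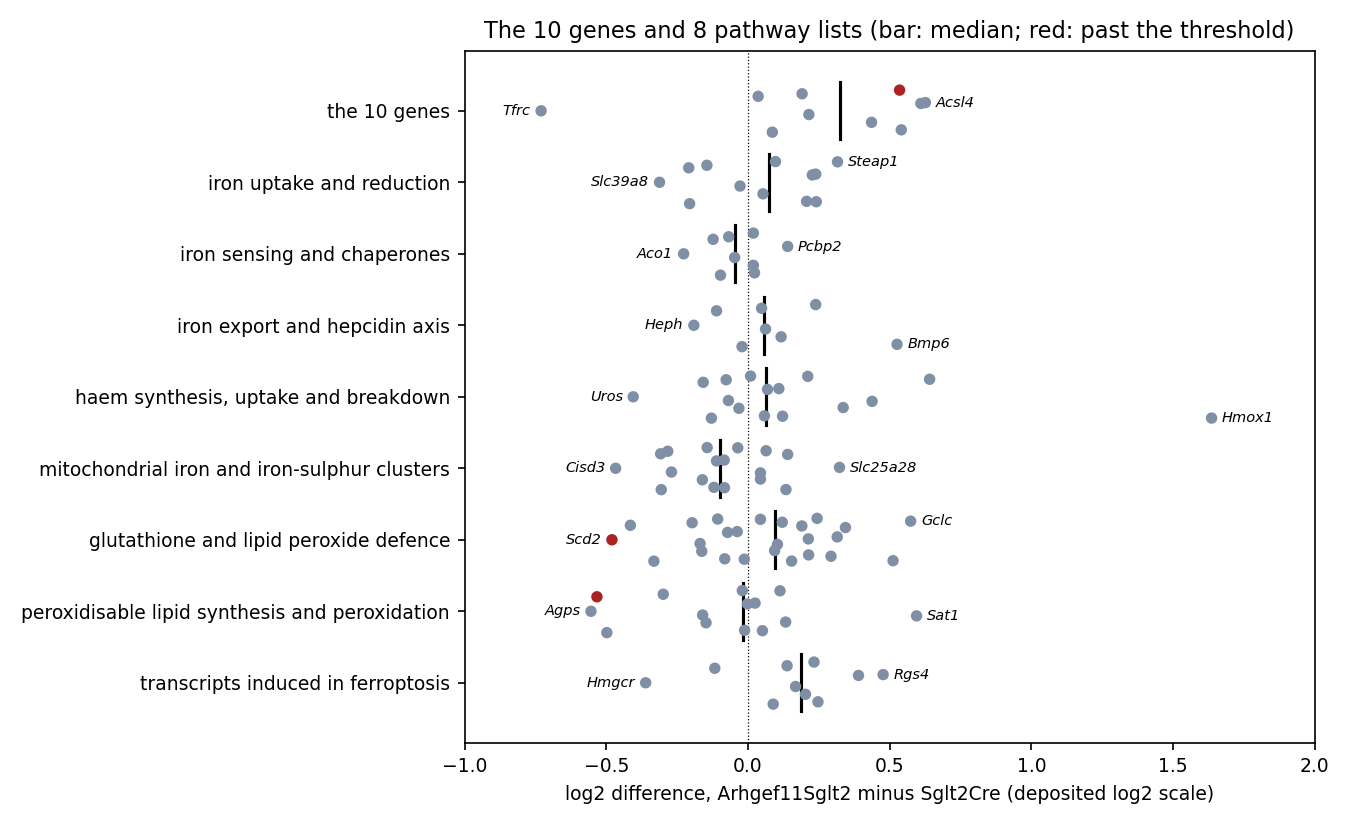
Log2 difference (Arhgef11Sglt2 minus Sglt2Cre, deposited scale) of the 10 genes and of the measured genes of 8 lists, 1 point a gene, with a bar at each median and red points past the threshold. The lists straddle 0, with medians between -0.10 and 0.19, and the red points are Slc40a1, Scd2 and Fads2.

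For the 3 genes with the smallest p in limma, the genes whose log2 values followed them most closely over the 8 libraries were looked up among 13541 genes with at least 50 normalized counts on average. The libraries and the group difference are shared by all genes, and the highest of so many correlations is high by selection. Slc40a1 was followed by Slc19a1, the reduced folate carrier (Pearson r = 0.993), Pxmp4, a peroxisomal membrane protein (0.983), and 0610010F05Rik (0.969). Cp was followed by the protease inhibitor gene Serpina3n (0.973), Greb1l (0.953) and Fermt1 (0.951). Acsl4 was followed by the poly(A) nuclease gene Parn (0.992), Ppip5k1 (0.987) and Zbtb22 (0.986).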

How the data were processed

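Kidney RNA of 8 samples was made into stranded mRNA libraries and read from both ends, per the labels' protocols. Salmon 1.10.0, DESeq2 and build GRCm39 are named in the submitters' processing notes. For their roles, the annotation and any gene filter, nothing is given in the sources used here. The values deposited by the authors are log2 expression after variance stabilization, not counts: all columns share a minimum of 8.1275, taken as the value of a zero count. Inverting the closed form of that transformation gave normalized counts. Low values fell within 0.02 steps of a whole number in 30.1% to 54.1% of cases, so whole reads could not be taken back from the table, and count models were left out.

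limma 3.58.1 (R 4.3.3) was fitted to all 15948 genes and 8 libraries with group as the only term, 6 residual degrees of freedom, a variance trend, and Benjamini-Hochberg adjustment at 0.05. The procedure was tested on simulated data. Symbols matched 15902 identifiers. Hairpins were searched in GENCODE M21 transcripts of GRCm38, so no coordinates are given. The 10 genes and all lists were chosen with earlier results of these data known. Named were the 10 genes, list genes past the threshold and the 2 of each list with the smallest p, and the 3 genes most correlated with each of 3 of the 10; 1 list gene under this rule is not reported here. The alternatives were a filter, blocks, variance settings, array weights, scale, scaling and each library left out. Array weights let less variable libraries count for more. In Arhgef11Sglt2 replicates 1, 2 and 3 they were 0.404, 2.02 and 0.419, so that fit leans on replicate 2 of the group.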

Additional observations from a re-analysis of the deposited data

Results flagged for a closer look

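The control group of 5 libraries was searched for an outlying library in each of the 10 genes. Fth1 was found: control replicate 2, at 173905 normalized counts, lay apart from the other controls (106425 to 115892), with a gap of 0.827 of the range on the deposited log2 scale, above Dixon's 95% critical value of 0.71. Chance marks about 1 in 20 groups, and 10 were searched. Without that library Fth1 had a ratio of 1.27 between the groups in place of 1.14.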

How the results depend on the processing

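Of the 10 genes, 1 passed in limma; with array weights 4 did (Tfrc, Slc40a1, Trf and Cp), and with the replicate block 0. With each library left out the number ran from 0 to 2. Over all genes the 354 calls became 874 with array weights and 0 with the block, and ran from 24 (without control replicate 4) to 1334 (without Arhgef11Sglt2 replicate 1) with 1 library left out. For the pathway lists the 2 calls became 11 with array weights and 0 with the block, and ran from 0 to 15 with 1 library left out. In the first range of library numbers alone, an alternative chosen after seeing the data, limma passed 0 genes, with 1591 of all genes, 5 of the 10 and 20 of the lists at an unadjusted p under 0.05. Under the block these numbers were 2166, 6 and 25. The block, which shares each replicate number between groups, gave Slc40a1 a log2 difference of 0.55 (limma adjusted p = 0.249). Control replicates 4 and 5 have no partner in it, and its extra terms leave fewer residual degrees of freedom, so that fit has less power. The labels do not say that the numbers pair samples, and same-numbered libraries did not deviate together (correlations of -0.18, -0.09 and -0.01 for numbers 1, 2 and 3). Small differences turned sign with 1 library left out. Slc11a2 had -0.004 without control replicate 2, and -0.009 and -0.049 without Arhgef11Sglt2 replicates 2 and 3, in a range of -0.049 to 0.168. Ncoa4 had -0.075 without replicate 2 of that group (range -0.075 to 0.363) and Gpx4 -0.016 without replicate 3 (range -0.016 to 0.164). Gpx4 had -0.049 in the first range of library numbers. The cause was not tested. The other 7 genes kept their sign in all 19 alternative fits. The filter, a term for the number range, variance settings, pseudocounts of 1 and 10 and scaling left Slc40a1 as the 1 of the 10 genes to pass. With libraries scaled to equal totals and a pseudocount of 10 the pathway calls were 3: Gclc (0.64, limma adjusted p = 0.0492) and Sat1 (0.66, 0.0368) were gained and Scd2 (-0.46, 0.0636) was lost. With that pseudocount but without the scaling, the log2 differences of Gclc, Sat1 and Scd2 were 0.60, 0.62 and -0.50.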

Other observations

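The hairpin search also matched genes outside the 10. Of the 141 measured genes with a match, 4 (2.84%) passed in limma, beside 2.22% of all genes. Besides Slc40a1 these were Lrpap1, the chaperone of the megalin receptor family (log2 difference -0.59, limma adjusted p = 0.0172), Ppp1r1b, a phosphatase inhibitor (-0.60, adjusted p = 0.0458), and Vwa2 (-0.58, adjusted p = 0.0241), all chosen after their values were seen. Whether iron regulatory proteins bind these matches was not tested. Alas2, the erythroid enzyme of haem synthesis, is a textbook carrier of the hairpin in the leader. The search found it, with a log2 difference of -0.03 (limma adjusted p = 0.95). How many other carriers the search missed was not tested, and a gene without a match may still carry the element.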
